A study of Mus musculus with 8 samples.

Results

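The histone genes examined here are those of the mouse Hist1 to Hist4 clusters and 6 histone variant genes that lie outside them. Most of the cluster genes are of the replication type, but Hist1h1t, Hist1h2aa and Hist1h2ba are known as testis histones. The members were all array probes whose transcript accession belongs to a gene named Hist1h to Hist4h, plus the probes of H2afx, H2afz, H2afy, H3f3a, H3f3b and H1f0, and they numbered 53 probes of 39 genes among 41174 non-control probes and 18883 named genes. The clusters contributed 39 probes of 33 genes and the variants 14 probes of 6 genes. Of the 53, 52 passed the filter on dim probes, and the exception was 1 of the 2 probes of Hist4h4, which was not well above background on any of the 8 arrays.

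Cluster histone genes are transcribed mainly while DNA is being copied, and they supply the H1, H2A, H2B, H3 and H4 proteins that wrap the new strands. Their messages usually end in a stem-loop, bound by the protein Slbp, in place of a poly(A) tail, and cells destroy them quickly when replication stops. Some cluster genes, among them Hist1h1c and several H2B genes, can also give polyadenylated messages in cells that are not dividing. The variant genes other than H2afx mostly make ordinary polyadenylated messages throughout the cell cycle. H2afx is not limited to that form.

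The cells were mammary tumour lines from FVB mice with the PyMT (polyoma middle T) transgene, and every culture had received 50 uM camptothecin (CPT), a topoisomerase I poison that stalls replication forks, for 36 h. In the first experiment the Mtdh wild-type line WTA carried the LKO1-shSnd1 hairpin vector (Snd1 knockdown, 3 arrays) or the empty LKO1 vector (3 arrays), after puromycin selection. In the second, the Mtdh knockout line KO2 carried lentiviral LmPGK constructs for wild-type Mtdh (1 array) or for Mtdh with the W391D mutation, which impairs binding to Snd1 (1 array), after sorting for GFP. Snd1 is a Tudor-domain nuclease and Mtdh its binding partner. Each genotype was represented by 1 tumour line, no culture without camptothecin was analysed here, and the labels do not say whether replicates were separate cultures, so a p-value reflects only how these arrays spread.

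Each level below is a log2 ratio of the sample's Cy5 signal over that of a reference RNA mixed from 11 mouse cell lines, labelled with Cy3. The median Cy5 signal of an array was 158 to 363 units over local backgrounds of 61 to 72, and 78.0% to 88.5% of spots were well above background. The number of arrays limits the precision. The kit named in the labels, Agilent Quick Amp, copies RNA from its poly(A) tail, so messages that end in the stem-loop are expected to be copied poorly. How much of each histone signal came from polyadenylated messages was not tested.

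The promoters of 8 members were chosen for display because they cover the main outcomes reported below: linker histone genes that rose (Hist1h1c) or fell (Hist1h1e, Hist1h1b), core histone genes that rose (Hist1h2bk, Hist3h2a, Hist1h4f) or fell (Hist1h2ak), and a variant that fell (H3f3b). The outcomes are those of the probes named for each gene. As described below, the probes of Hist1h2bk, Hist1h4f and Hist1h2ak may also measure messages of near-identical genes. Each window holds 250 bases before and 50 bases after the annotated start on the gene's own strand, from RefSeq on GRCm38.p6. Capitals mark, on either strand, the TATA box (TATAAA), the CCAAT box (CCAAT), the octamer of H2B promoters (ATTTGCAT), the H1 box (AAACACA) and part of a site known from H4 promoters (GGTCCG), so a match can also read as the reverse complement. Hist1h1c lies at chr13:23738557-23738856 on the plus strand, Hist1h1e at chr13:23622509-23622808 on the minus strand and Hist1h1b at chr13:21780576-21780875 on the minus strand. Hist1h2bk lies at chr13:22035571-22035870 on the plus strand, Hist1h2ak at chr13:21753863-21754162 on the minus strand and Hist1h4f at chr13:23551619-23551918 on the minus strand. Hist3h2a lies at chr11:58954435-58954734 on the plus strand, and H3f3b at chr11:116024455-116024754 on the minus strand.
Hist1h1c: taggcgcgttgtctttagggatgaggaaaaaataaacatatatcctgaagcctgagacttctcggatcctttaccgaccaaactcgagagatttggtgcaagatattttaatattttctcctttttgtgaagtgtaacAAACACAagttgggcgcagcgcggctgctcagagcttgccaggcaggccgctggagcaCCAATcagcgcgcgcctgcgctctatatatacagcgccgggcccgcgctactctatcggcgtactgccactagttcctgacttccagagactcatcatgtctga
Hist1h1e: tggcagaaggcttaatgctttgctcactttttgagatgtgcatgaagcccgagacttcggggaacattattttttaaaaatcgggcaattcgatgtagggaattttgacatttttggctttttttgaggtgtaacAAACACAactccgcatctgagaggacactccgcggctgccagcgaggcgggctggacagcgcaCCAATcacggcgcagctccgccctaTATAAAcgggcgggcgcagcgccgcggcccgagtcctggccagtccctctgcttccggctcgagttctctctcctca
Hist1h1b: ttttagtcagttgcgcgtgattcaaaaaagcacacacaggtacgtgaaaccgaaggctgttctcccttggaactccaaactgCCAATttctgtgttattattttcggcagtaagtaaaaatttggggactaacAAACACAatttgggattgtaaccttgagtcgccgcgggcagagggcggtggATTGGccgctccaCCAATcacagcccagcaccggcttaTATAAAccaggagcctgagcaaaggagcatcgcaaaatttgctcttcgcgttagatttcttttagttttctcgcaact
Hist1h2bk: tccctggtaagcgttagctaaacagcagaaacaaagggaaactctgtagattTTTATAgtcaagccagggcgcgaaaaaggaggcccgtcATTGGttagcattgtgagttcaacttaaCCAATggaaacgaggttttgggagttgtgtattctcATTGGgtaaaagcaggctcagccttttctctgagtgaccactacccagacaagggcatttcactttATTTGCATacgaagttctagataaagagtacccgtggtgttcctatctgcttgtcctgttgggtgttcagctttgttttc
Hist3h2a: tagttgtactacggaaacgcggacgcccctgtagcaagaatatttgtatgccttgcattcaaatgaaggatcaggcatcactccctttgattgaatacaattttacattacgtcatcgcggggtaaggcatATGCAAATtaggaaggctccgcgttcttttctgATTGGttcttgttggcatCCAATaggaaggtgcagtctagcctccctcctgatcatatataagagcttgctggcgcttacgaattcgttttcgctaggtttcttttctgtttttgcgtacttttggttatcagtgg
Hist1h2ak: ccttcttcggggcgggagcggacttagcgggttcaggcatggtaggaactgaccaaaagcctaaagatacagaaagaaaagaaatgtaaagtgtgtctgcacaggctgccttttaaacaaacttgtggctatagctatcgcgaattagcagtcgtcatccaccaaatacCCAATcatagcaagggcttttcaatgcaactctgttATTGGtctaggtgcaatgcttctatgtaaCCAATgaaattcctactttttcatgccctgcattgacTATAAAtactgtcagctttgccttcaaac
Hist1h4f: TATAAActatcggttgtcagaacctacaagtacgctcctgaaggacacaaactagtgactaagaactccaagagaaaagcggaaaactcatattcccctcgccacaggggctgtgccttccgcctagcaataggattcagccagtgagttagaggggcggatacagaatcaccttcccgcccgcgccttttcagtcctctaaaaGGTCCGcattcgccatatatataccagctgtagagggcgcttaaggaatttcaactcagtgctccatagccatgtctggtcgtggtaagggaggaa
H3f3b: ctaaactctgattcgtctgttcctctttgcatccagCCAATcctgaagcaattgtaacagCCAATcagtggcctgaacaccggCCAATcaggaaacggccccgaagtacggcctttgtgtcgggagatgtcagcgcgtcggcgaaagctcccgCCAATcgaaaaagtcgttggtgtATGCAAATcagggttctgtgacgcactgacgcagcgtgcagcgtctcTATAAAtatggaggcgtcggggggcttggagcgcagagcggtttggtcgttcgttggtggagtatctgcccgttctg

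The promoter table held 35 promoters for 34 of the 39 genes, of which 30 belonged to 29 cluster genes. The CCAAT box was present in 93.3% of the 30 cluster promoters and in 37.4% of all 32851 promoters in the table, and the TATA box in 60% against 13.6%. The octamer was found in 33.3% against 1.74%, and all 10 cluster promoters with it were H2A (6 of 11) or H2B (4 of 7) promoters. The windows of Hist1h2ba and Hist1h2aa share 220 bases, and those of Hist1h2ao and Hist1h2bq share 267. A match in shared bases was counted for each promoter, as was the single octamer of Hist1h2ba and Hist1h2aa. The H1 box was found in 30% against 7.18%, including 5 of the 6 H1 promoters, and no match of one motif overlapped a match of another in these promoters. The H4 site was found in 10% against 8.25%, in 3 of the 4 H4 promoters only. The 3 linker histone promoters printed above each hold the H1 box followed by the CCAAT box, whereas their messages moved in opposite directions. These matches are descriptions of letters and do not show that a factor binds.

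**Figure D1:**
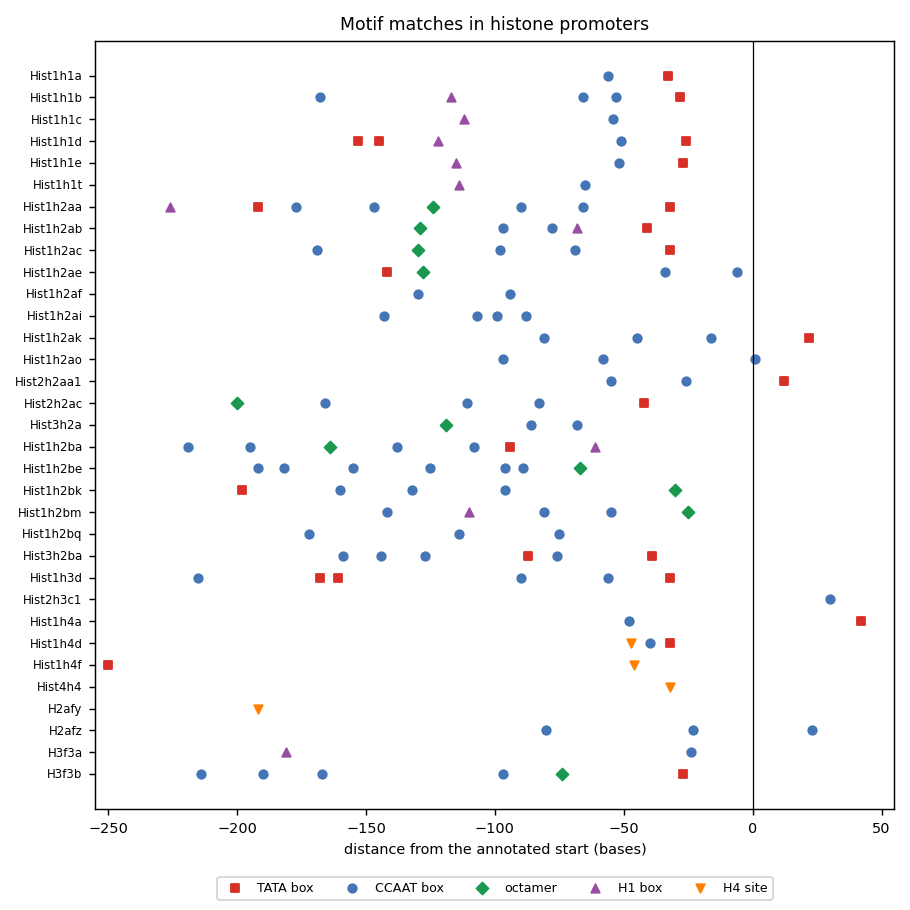
Positions of the 5 motifs, on either strand, in the promoters of member genes with at least 1 match; the x axis is the distance in bases from the annotated start to the leftmost base of the motif, and each row is a gene. Octamer matches (green diamonds) lie in H2A and H2B rows and in H3f3b, and 9 of the 24 TATA box matches in cluster genes start 40 to 20 bases before the start. Matches in overlapping windows are shown and counted for each gene.

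Before the histones, the targeted gene was examined. The Snd1 log2 ratio was -3.23, -3.33 and -3.44 on the 3 knockdown arrays and -2.49, -2.40 and -2.43 on the 3 vector arrays. Snd1 was thus lower on every knockdown array, by 0.90 ± 0.06 on the log2 scale (SE, 3 against 3 arrays; adjusted p = 8.66e-06). The brighter Mtdh probe differed by -0.12 ± 0.06 (adjusted p = 0.117) and was not called.

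Most cluster histone messages were higher in camptothecin-treated cells with Snd1 knockdown than with the empty vector. The largest rises were those of Hist1h2bc, Hist1h1c, Hist1h2bm, Hist1h2bk and Hist3h2a. Of the 39 cluster probes, 27 were called higher and 8 lower at an adjusted p under 0.05, 3 were not called and 1 was not tested. Over all 33564 probes tested, 45.7% were called, 23.6% higher and 22.1% lower, so the share of cluster probes called lower lay close to that of all probes and the share called higher lay above it. A rise of at least 2-fold was called for 13 cluster probes, against 2.14% of all probes, and none of the 8 that fell did so by 2-fold, against 1.4%. By gene, 22 of the 33 rose, 7 fell, 2 were not called, and 2 (Hist1h2af and Hist1h4d) had probes with different calls. Several probes of near-identical genes gave nearly the same values on every array, as described below, so these counts are not of independent measurements. The median log2 difference of the cluster probes was 0.55, against 0.02 for all probes. Values of the 3 knockdown arrays did not overlap those of the 3 vector arrays for 35 of the 38 tested cluster probes, against 53.9% of all probes. The 6 arrays lay on 2 slides, each with both groups, and the cluster median was 0.53 on one and 0.59 on the other, with the same sign on both slides for 38 of 38 probes.

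Markers of fibroblasts and of luminal epithelium also differed between these groups, where 23.6% of all probes were called higher and 22.1% lower. Fibroblast markers were called higher in the knockdown for 5 of 6 genes, with a summed Cy5 signal of 13576 to 21504 against 5758 to 9495 in the vector arrays, and luminal epithelial markers were called lower for 4 of 5, with sums of 191835 to 399655 against 270774 to 610306. Basal markers were higher for 1 and lower for 2 of 4, and leukocyte and endothelial markers were higher for 1 and lower for 1 of 4 and of 3. No marker lacked a spot well above background on every array. The part of these differences in the histone result was not tested, and in bulk RNA fewer cells of a type and less RNA per cell cannot be told apart.

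**Figure D2:**
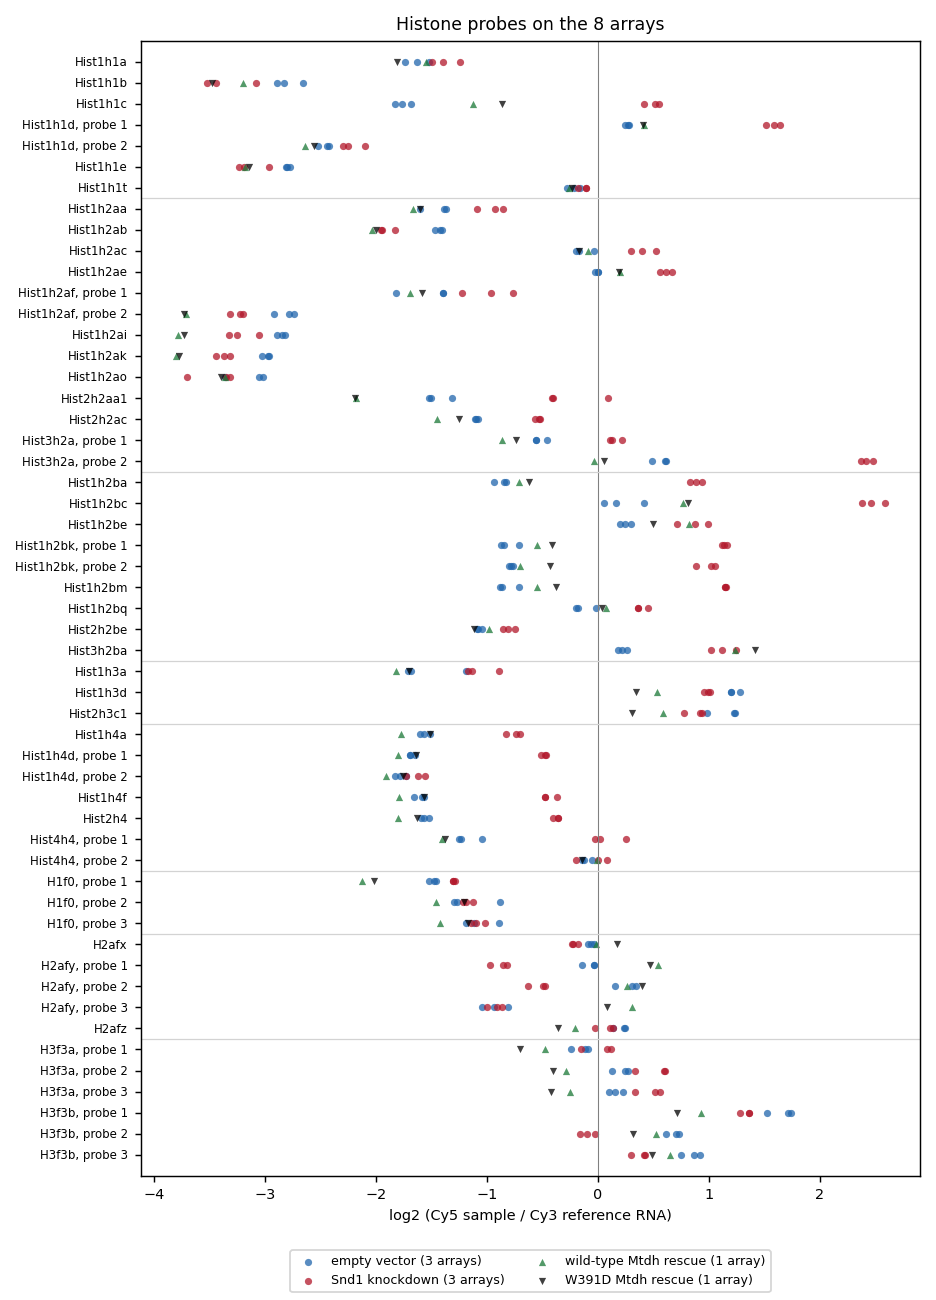
Log2 ratio of Cy5 sample over Cy3 reference for all 53 histone probes on the 8 arrays, grouped from top to bottom as cluster H1, H2A, H2B, H3 and H4 and then variants. Knockdown points (red) lie to the right of vector points (blue) for every H2B probe, and to their left for Hist1h1b, Hist1h1e and 4 H2A probes called lower.

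Linker histones, which bind the DNA between nucleosomes, moved in both directions. Hist1h1c, a linker histone expressed in many non-dividing tissues, had log2 ratios of 0.42, 0.51 and 0.56 with the hairpin and -1.68, -1.82 and -1.76 with the vector. All 3 knockdown arrays lay far above all 3 vector arrays, a 4.76-fold rise (2.25 ± 0.06 on the log2 scale, SE; adjusted p = 5.62e-08). Its level was -1.13 with wild-type Mtdh and -0.86 with W391D, above the vector arrays and below the knockdown arrays. Hist1h1d was at 1.52, 1.59 and 1.64 in the knockdown and at 0.27, 0.25 and 0.28 in the vector, again without overlap (1.32 ± 0.05; adjusted p = 2.85e-07). A second Hist1h1d probe rose less, by 0.25 ± 0.06 (adjusted p = 0.0108), a rise that was not called in the Cy5 channel alone (adjusted p = 0.307), with median centring (adjusted p = 0.0529) or with the software's own log ratios (adjusted p = 0.0641).

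Hist1h1a, a linker histone of dividing cells, rose by 0.25 ± 0.08 (adjusted p = 0.0324), and this call was lost without knockdown array 2 (adjusted p = 0.0682), knockdown array 3 (adjusted p = 0.106), vector array 1 (adjusted p = 0.0921) or vector array 2 (adjusted p = 0.0787). It was also lost with no background correction (adjusted p = 0.0536), the software's log ratios (adjusted p = 0.507), median centring (adjusted p = 0.116), Cy5 alone (adjusted p = 0.705) and scaling to one spread (adjusted p = 0.129). Hist1h1b, another linker histone of dividing cells, stood at -3.08, -3.44 and -3.53 in the knockdown and at -2.66, -2.83 and -2.89 in the vector. The groups did not overlap and the fall was 0.55 ± 0.11 on the log2 scale (-0.55; adjusted p = 0.00426). Hist1h1e was at -2.96, -3.18 and -3.24 against -2.81, -2.77 and -2.80, also without overlap (-0.33 ± 0.07; adjusted p = 0.00521). That call was lost when arrays were scaled to one spread (adjusted p = 0.0714), and median centring gave -0.51. The testis-specific Hist1h1t was not called (0.09 ± 0.05; adjusted p = 0.199).

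The 13 probes for cluster genes of H2A, which pairs with H2B in the nucleosome, split into 8 called higher, 4 lower and 1 not called, with a median difference of 0.54. Hist3h2a was at 2.48, 2.42 and 2.37 in the knockdown and at 0.61, 0.49 and 0.60 in the vector, which do not overlap (1.85 ± 0.05; adjusted p = 9.41e-08). Its other probe rose by 0.67 ± 0.05 (adjusted p = 1.66e-05), a call lost in the Cy5 channel alone (adjusted p = 0.167). Hist2h2aa1 was at 0.09, -0.41 and -0.41 against -1.31, -1.50 and -1.52, a rise of 1.21 ± 0.13 (adjusted p = 0.000119) in which the first knockdown array stood above the other two. Hist1h2ae rose by 0.62 ± 0.05 (adjusted p = 1.24e-05) and Hist1h2ac by 0.54 ± 0.07 (adjusted p = 0.000301). The vector signal of Hist1h2ac was well above background on only 1 of 3 arrays, and the software's log ratios gave differences of 1.56 for it and 1.07 for Hist1h2ae.

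Among the members with the brightest Cy5 signal were the H2A genes Hist2h2ac, Hist1h2aa and Hist1h2af. Hist2h2ac was at -0.57, -0.53 and -0.52 with the hairpin and at -1.08, -1.09 and -1.11 with the vector, a rise without overlap (0.55 ± 0.04; adjusted p = 1.41e-05). Hist1h2aa, known as a testis histone, was at -1.09, -0.93 and -0.86 against -1.60, -1.38 and -1.37 (0.49 ± 0.08; adjusted p = 0.0013). The brighter Hist1h2af probe, at -1.23, -0.97 and -0.77 against -1.82, -1.39 and -1.40, rose by 0.55 ± 0.14 (adjusted p = 0.0132), a call lost without knockdown array 3 (adjusted p = 0.0502) and in the Cy5 channel alone (adjusted p = 0.222). The 2 last probes stayed within 0.25 of each other on all 8 arrays, so which of these near-identical genes they measured is uncertain.

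The 4 H2A probes that fell belonged to Hist1h2ab, Hist1h2af, Hist1h2ak and Hist1h2ai. Hist1h2ab was at -1.83, -1.94 and -1.95 in the knockdown and at -1.42, -1.47 and -1.40 in the vector, without overlap (-0.48 ± 0.05; adjusted p = 9.33e-05). The dimmer Hist1h2af probe was at -3.22, -3.19 and -3.31 against -2.92, -2.74 and -2.78 (-0.43 ± 0.06; adjusted p = 0.00051), opposite in direction to the brighter one. Hist1h2ak was at -3.31, -3.37 and -3.44 against -2.97, -2.97 and -3.02 (-0.39 ± 0.05; adjusted p = 0.000301). Every knockdown array lay below every vector array for these genes.

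Hist1h2ai was at -3.05, -3.25 and -3.32 against -2.85, -2.82 and -2.89, also without overlap (-0.35 ± 0.07; adjusted p = 0.00366; -0.55 with median centring and -0.56 in Cy5 alone). With the arrays scaled to one spread, Hist1h2af, Hist1h2ak and Hist1h2ai kept their sign but were no longer called (adjusted p = 0.0831, 0.0535 and 0.0539). The dimmer Hist1h2af probe stayed within 0.25 of both Hist1h2ai and Hist1h2ak on all arrays, so these falls may be measured on shared messages. Hist1h2ao differed by -0.31 ± 0.12 (adjusted p = 0.0723) and was not called. Blocking on the replicate number (adjusted p = 0.000573) or on the slide (adjusted p = 0.000226) called it, as did leaving out vector array 1 (adjusted p = 0.0187). So did median centring (adjusted p = 0.0155), array weights (adjusted p = 0.0242) and the second slide alone (adjusted p = 0.00191).

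All 9 probes for cluster H2B genes, the partner of H2A in the dimer, rose, with a median of 1.75. Hist1h2bc was at 2.59, 2.38 and 2.47 in the knockdown and at 0.42, 0.06 and 0.16 in the vector. The groups were far apart, a 4.81-fold rise (2.26 ± 0.09; adjusted p = 5.86e-07), and the rescue arrays stood between them at 0.77 with wild-type Mtdh and 0.82 with W391D. Hist1h2bm was at 1.15, 1.15 and 1.14 against -0.71, -0.88 and -0.86 (1.97 ± 0.06; adjusted p = 9.13e-08). Hist1h2bk was at 1.14, 1.16 and 1.12 against -0.71, -0.84 and -0.87 (1.95 ± 0.05; adjusted p = 7.99e-08), and its second probe rose by 1.77 ± 0.06. The Hist1h2bm and Hist1h2bk values just given differed by at most 0.04 on any array, so the 2 probes may measure the same messages.

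Hist1h2ba, first known as the testis H2B, was at 0.94, 0.88 and 0.83 in the knockdown and at -0.83, -0.93 and -0.84 in the vector (1.75 ± 0.05; adjusted p = 1.08e-07). It followed the second Hist1h2bk probe within 0.19 on every array, so its signal cannot be assigned to the testis gene. Hist3h2ba, at 1.25, 1.02 and 1.12 against 0.26, 0.22 and 0.18, rose by 0.91 ± 0.06 (adjusted p = 9.05e-06). Both of its rescue arrays, at 1.23 and 1.42, reached the knockdown level. For Hist1h2be the wild-type rescue array did so too, at 0.82 beside knockdown values of 0.71, 1.00 and 0.87, while W391D was at 0.50. The remaining H2B probes were Hist1h2be (0.61), Hist1h2bq (0.52) and Hist2h2be (0.27). With the software's log ratios the first 2 differed by 2.14 and 1.22. The reference spot of Hist1h2be was not well above background on any array, and its Cy5 spot was so on 2 of the 3 vector arrays. The Hist2h2be call was lost with median centring (adjusted p = 0.0699) and in Cy5 alone (adjusted p = 0.305).

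The 3 probes for cluster H3 genes, which pairs with H4 in the nucleosome core, gave the least uniform picture. Hist1h3d was at 0.95, 1.00 and 1.01 in the knockdown and at 1.20, 1.28 and 1.20 in the vector, a fall without overlap (-0.24 ± 0.05; adjusted p = 0.00265). Hist2h3c1 was at 0.77, 0.92 and 0.94 against 0.99, 1.24 and 1.23 (-0.28 ± 0.08; adjusted p = 0.0207). Both were among the 5 cluster genes with the brightest signal and stayed within 0.22 of each other, and neither was called when the Cy5 channel was used alone (adjusted p = 0.352 and 0.524). Hist1h3a rose by 0.46 ± 0.14 (adjusted p = 0.0277; 0.92 with the software's log ratios), and this call was lost without knockdown array 1 (adjusted p = 0.0866) or 3 (adjusted p = 0.0552) and without vector array 2 (adjusted p = 0.0943) or 3 (adjusted p = 0.0959). The Hist2h3c1 call was lost without knockdown array 1 (adjusted p = 0.0616) and without vector array 2 (adjusted p = 0.0754) or 3 (adjusted p = 0.0767). It was also lost with the software's log ratios (adjusted p = 0.0835) and with the deposited value table (adjusted p = 0.0836).

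For H4, whose genes encode 1 and the same protein, 5 of the 6 tested probes rose and none fell, with a median of 1.17. Hist4h4 was at 0.25, 0.02 and -0.03 in the knockdown and at -1.04, -1.24 and -1.25 in the vector, without overlap (1.26 ± 0.09; adjusted p = 8.28e-06). Hist1h4d rose by 1.19 ± 0.04 (adjusted p = 2.72e-07), Hist2h4 by 1.19 ± 0.04 (adjusted p = 3.4e-07) and Hist1h4f by 1.16 ± 0.05 (adjusted p = 8.21e-07). These 3 probes stayed within 0.14 of each other on all arrays, so they may count as 1 measurement. Hist1h4a rose by 0.81 ± 0.05 (adjusted p = 5.51e-06), and a second Hist1h4d probe was not called (0.14 ± 0.06; adjusted p = 0.0772). Blocking on the replicate number called it (adjusted p = 0.0409), as did leaving out knockdown array 3 (adjusted p = 0.0332).

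**Figure D3:**
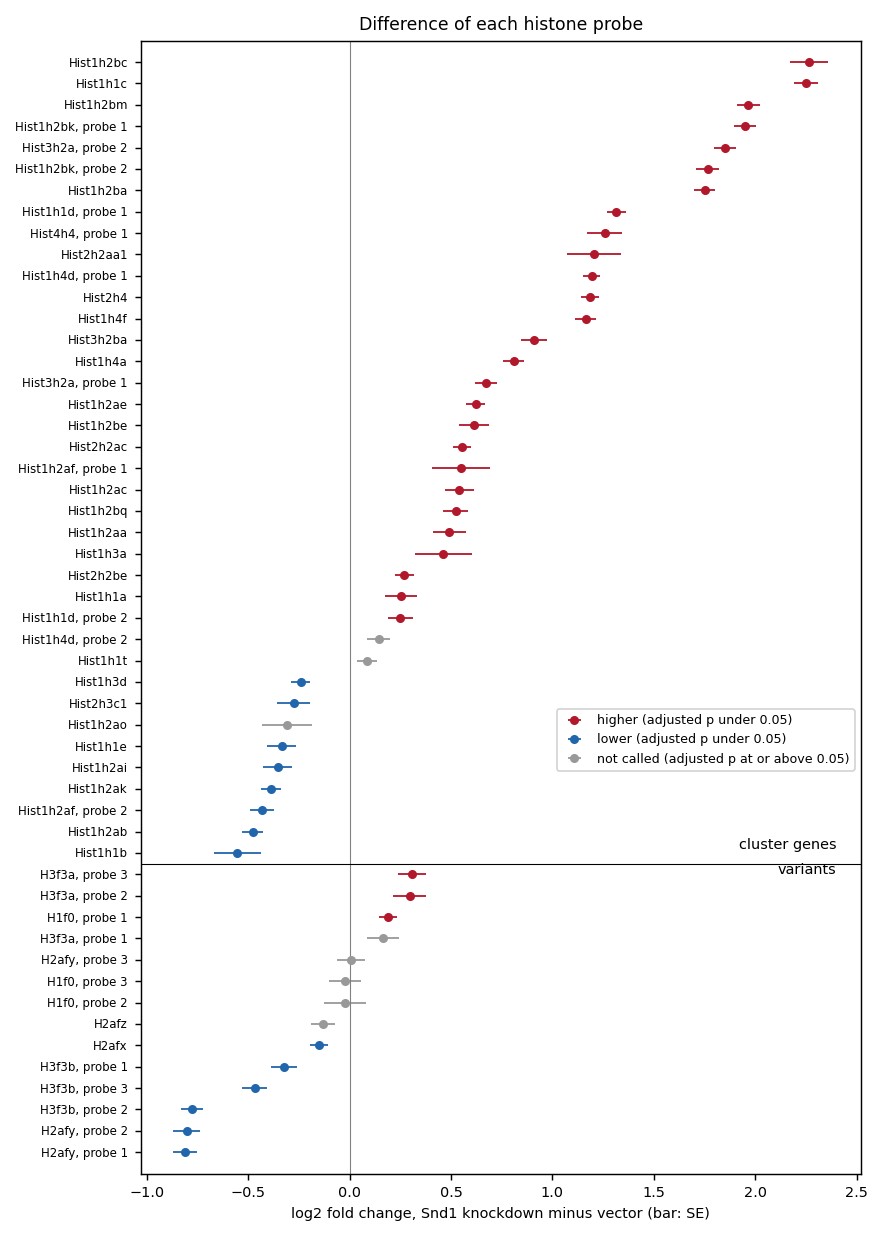
Log2 fold change, Snd1 knockdown minus vector, of the 52 tested histone probes with standard errors (3 against 3 arrays); red was called higher, blue lower and grey not called. Cluster probes reach 2.26 and the variants lie between -0.81 and 0.31.

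The variants did not share the rise. Of the 14 variant probes, 3 were called higher, 6 lower and 5 not called, and their median difference was -0.08, with 23.6% and 22.1% of all probes called higher and lower. H3f3b, a gene for the replication-independent histone H3.3, fell on all 3 of its probes. The brightest was at 1.29, 1.36 and 1.37 in the knockdown and at 1.53, 1.74 and 1.72 in the vector (-0.32 ± 0.06; adjusted p = 0.00351), and this call was absent in the Cy5 channel alone (adjusted p = 0.924). The second was at -0.16, -0.10 and -0.03 against 0.61, 0.73 and 0.71 (-0.78 ± 0.05; adjusted p = 8.86e-06; -0.49 in Cy5 alone), and the remaining probe differed by -0.47 ± 0.06 (adjusted p = 0.000312). H3f3a, the other H3.3 gene, went the opposite way on the probes that were called.

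The 2 called H3f3a probes stood at 0.33, 0.59 and 0.61 against 0.13, 0.28 and 0.25 (0.30 ± 0.08; adjusted p = 0.017) and at 0.33, 0.52 and 0.56 against 0.10, 0.23 and 0.16 (0.31 ± 0.07; adjusted p = 0.00635). Neither was called in the Cy5 channel alone (adjusted p = 0.515 and 0.544), and the first was not called without knockdown array 2 (adjusted p = 0.0635) or 3 (adjusted p = 0.066) or vector array 1 (adjusted p = 0.0513). Its brightest probe, at -0.15, 0.12 and 0.08 against -0.24, -0.08 and -0.12, overlapped between the groups (0.16 ± 0.08; adjusted p = 0.137). That probe was called when the replicate number (adjusted p = 0.0212) or the slide (adjusted p = 0.0127) was blocked on and without knockdown array 1 (adjusted p = 0.0129). So it was with the software's log ratios and the value table (adjusted p = 0.0385 each), median centring (adjusted p = 0.0319), array weights (adjusted p = 0.0249) and the second slide alone (adjusted p = 0.0108). H2afy, which encodes macroH2A1, a variant with a large extra domain, depended on the probe. Its brightest probe was at -0.82, -0.85 and -0.97 in the knockdown and at -0.14, -0.03 and -0.04 in the vector (-0.81 ± 0.06; adjusted p = 9.65e-06), and a second fell by as much (-0.80 ± 0.07; adjusted p = 2.3e-05). The remaining probe, at -0.90, -0.87 and -0.99 against -1.04, -0.81 and -0.94, overlapped and did not differ beyond its error (0.01 ± 0.07; adjusted p = 0.948).

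H2afx, the variant phosphorylated at DNA breaks, was at -0.18, -0.23 and -0.22 in the knockdown and at -0.03, -0.09 and -0.06 in the vector (-0.15 ± 0.04; adjusted p = 0.022; -0.26 with median centring and -0.28 in Cy5 alone). This small fall was not called without knockdown array 2 (adjusted p = 0.0804) or 3 (adjusted p = 0.0655) or without vector array 1 (adjusted p = 0.0591) or 3 (adjusted p = 0.0642). H2afz, which encodes H2A.Z, was at -0.03, 0.11 and 0.14 against 0.13, 0.24 and 0.24, which overlap (-0.13 ± 0.06; adjusted p = 0.113). Blocking on the replicate number (adjusted p = 0.0394) or on the slide (adjusted p = 0.0229) called it, as did the software's log ratios and the value table (adjusted p = 0.0428 each). H1f0, the linker histone of non-dividing cells, was at -1.29, -1.31 and -1.30 against -1.52, -1.46 and -1.48 on its brightest probe (0.19 ± 0.04; adjusted p = 0.00693). That call was lost with median centring (adjusted p = 0.572), in Cy5 alone (adjusted p = 0.228) and with arrays scaled to one spread (adjusted p = 0.0728), and its 2 other probes were not called (-0.02 each; adjusted p = 0.883 and 0.855).

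Set against the variants on the same array, the cluster histones stood higher on the knockdown arrays. The median of the 38 cluster probes minus that of the 14 variant probes was -0.06, -0.22 and -0.28 on the 3 knockdown arrays and -1.17, -1.41 and -1.37 on the 3 vector arrays. It was -1.31 with wild-type Mtdh and -1.18 with W391D, so both rescue arrays lay within the vector range and the knockdown arrays apart from all others. The cluster median itself was -0.34 ± 0.09 (SD, n = 3) in the knockdown and -1.25 ± 0.10 in the vector, and the variant median -0.15 ± 0.02 and 0.06 ± 0.03. No p is given for these medians.

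**Figure D4:**
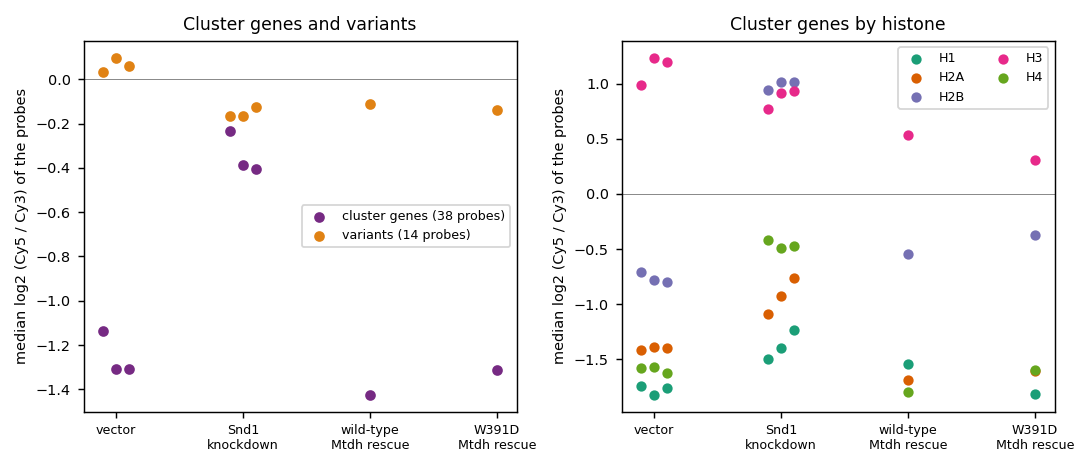
Median log2 ratio of cluster and variant probes on each array (left) and of cluster probes by histone (right); each point is 1 array. The knockdown arrays have cluster medians of -0.23 to -0.40, the vector arrays of -1.14 to -1.31, and the rescue arrays lie near the vector arrays.

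The rescue experiment asked what the W391D change in Mtdh does under camptothecin, with 1 array a group and hence no test. No histone probe differed between W391D and wild-type Mtdh by 1.5-fold in either direction, as was true of nearly all probes (0.0653% higher and 0.114% lower). The Mtdh message itself was at 0.42 with the wild-type construct and at -0.10 with W391D on its brighter probe, and at 0.01 and -0.16 on the dimmer one. Differences ranged from -0.32 for Hist1h2be to 0.27 for the second Hist1h2bk probe, and the reference spot of Hist1h2be was not well above background on either array. The cluster median was 0.05 and the variant median -0.13, and all 6 tested H4 probes were higher with W391D, by 0.03 to 0.26. Across the 52 tested probes the W391D difference and the knockdown difference had r = 0.46, and across the 38 cluster probes r = 0.52. These correlations are across probes that share arrays and, in part, sequence.

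**Figure D5:**
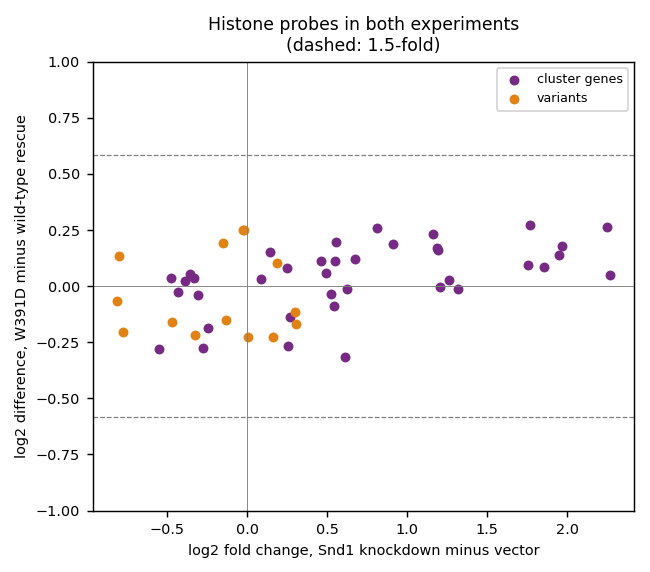
Each point is a histone probe, with its knockdown minus vector difference on the x axis and its W391D minus wild-type rescue difference on the y axis (both log2). The x axis spans -0.81 to 2.26, while all points lie between the dashed 1.5-fold lines on the y axis.

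The rescued KO2 line was also compared with the vector arrays of the WTA line, although line, vector and slide cannot be told apart here. Both rescue arrays lay below the vector range for 16 of the 38 tested cluster probes and above it for 11, against 29.1% and 33.7% of all probes. By histone the picture was uneven. Of the 9 H2B probes, 8 were above the vector range and none below, while of the 13 H2A probes 9 were below and 1 above. The 8 cluster probes called lower in the knockdown were all below the vector range on both rescue arrays. Both rescue arrays lay below all 3 knockdown arrays for 33 of the 38 tested cluster probes, against 34.1% of all probes.

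By location, the Hist1 cluster on chromosome 13 gave 19 probes called higher and 7 lower of 29 tested, with a median of 0.52, and the Hist2 cluster on chromosome 3 gave 4 and 1 of 5, with a median of 0.55. All 3 Hist3 probes (chromosome 11) and the 1 tested Hist4 probe (chromosome 6) were higher. In the RefSeq gene order, 11 pairs of members were direct neighbours, and both genes of 6 of them were called higher. In 1 pair, Hist2h2aa1 rose and Hist2h3c1 fell, each on its 1 probe. In another pair, Hist1h3d fell while Hist1h4d was called higher on its brighter probe only. Hist2h3c1 on chromosome 3 stayed within 0.22 of Hist1h3d on chromosome 13 on all arrays. Hist2h4 on chromosome 3 likewise stayed within 0.14 of Hist1h4f and the brighter Hist1h4d probe on chromosome 13. The location of these signals is therefore uncertain, as are the counts and pairs that include them. The start regions of Hist1h2bq and Hist1h2ao overlap head to head, and there only Hist1h2bq was called. Those of Hist1h2ba and Hist1h2aa, 1 of the 6 pairs, overlap too, but as described above the signals of their probes cannot be assigned to these genes.

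Of the genes that act on histone messages, 7 of 21 were called higher and 9 lower (23.6% and 22.1% of all probes), with a median of -0.10. In this and the other gene lists, a gene was counted on its brightest tested probe. Slbp, which binds the stem-loop, was at 0.30, 0.37 and 0.41 in the knockdown and at 0.00, -0.02 and -0.00 in the vector, a rise without overlap (0.37 ± 0.05; adjusted p = 0.000299). Eri1, an exonuclease that trims the stem-loop end, fell (-0.59 ± 0.05; adjusted p = 1.72e-05), as did Cpsf2, a subunit of the cleavage complex (-0.57 ± 0.06; adjusted p = 7.34e-05), while Cstf2t, a relative of the cleavage factor Cstf2, rose (0.48 ± 0.06; adjusted p = 0.000187). Npat, the activator of cluster histone transcription, was not called on its brighter probe (-0.10 ± 0.06), and its other probe differed by -0.27.

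Among histone chaperones and deposition factors, 4 of 24 tested genes were higher and 14 lower, against 23.6% and 22.1% of all probes, with a median of -0.32. Among those with the smallest p were the centromere factors Oip5 (-1.32 ± 0.05) and Mis18a (-0.82 ± 0.05) and the H3-H4 chaperone Asf1b (-0.75 ± 0.05). Among S-phase genes, 4 of 21 were higher and 14 lower, beside the same shares of all probes, with a median of -0.45. Prim1, the primase subunit, was at -1.61, -1.49 and -1.57 in the knockdown and at -0.42, -0.37 and -0.34 in the vector, far apart (-1.18 ± 0.05). Rrm1, a ribonucleotide reductase subunit, differed by -0.88 ± 0.04 and Mcm6 of the replicative helicase by -0.89 ± 0.04. The S-phase activator E2f3 differed by -0.67 ± 0.04 on its brightest probe, but only by -0.12 and 0.01 on its other tested probes. Ccne1, which encodes cyclin E1, rose by 0.59 ± 0.06.

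Other histone variants outside the set were 1 higher and 2 lower of 9 tested, against 23.6% and 22.1% of all probes. H2afv, which encodes a second H2A.Z protein, fell to -1.38, -1.31 and -1.30 from -0.19, 0.01 and -0.02 (-1.26 ± 0.06), and Cenpa, the centromeric H3, fell as clearly (-1.09 ± 0.06). H2afj, an H2A variant known to accumulate in senescent human cells, rose by 0.68 ± 0.07 on its brighter probe and by 1.67 on the other. The lists were chosen with earlier results of these data known, so their counts describe these arrays only.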

How the data were processed

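Per the file headers, the deposited intensities are not normalized: they are the median pixel value of a spot in each dye, beside its local background, from Agilent Feature Extraction 11.0.1.1 (the submitters' processing notes give 9.5.3.1). The same files hold the deposited log10 ratios, Cy5 over Cy3, which that software had already corrected for background and dye, per the file headers. The authors' deposited value table holds log2 ratios. Each of its columns tracked the scanner's ratios of its own array (r of 0.988 to 1) and had a median of 0.0256 to 0.146, so it had not been centred. Mean signals had been planned for, but the files hold medians, which were used.

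The normexp method of limma 3.58.1 (R 4.3.3, offset 50) removed background, and loess normalized each array. Control spots (1639 an array) and outlier spots (77 to 142) were left out, and repeated spots were averaged. The scanner files carry no gene names, so unversioned RefSeq accessions were looked up in a GRCm38.p6 table, which named 27668 of 41174 probes. A probe was tested if its Cy5 spot stood well above background on 3 or more of the 6 arrays of the first experiment (33564 probes), by limma's lmFit and eBayes with Benjamini-Hochberg adjustment over all tested probes, and was called at an adjusted p under 0.05. On simulated data with 33551 probes, 95% of log2 changes of 0.5 and 100% of changes of 1 were recovered, and 4.41% of calls were false. The simulation changed 200 probes, with independent noise and no slide effect, whereas 45.7% of the real probes were called. Smaller changes were not simulated, so recovery of the smaller histone differences is not known. Rescue arrays were subtracted from each other, with no test.

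Same-numbered knockdown and vector arrays deviated together (r of 0.57, 0.31 and 0.31). Different-numbered arrays of the second slide did so too (r of 0.37 and 0.22), so the pattern follows the slides and does not show a pairing by number. Alternatives blocked on the replicate number or on the slide. Named genes were Snd1, Mtdh, all variants, the 8 highest and 8 lowest called cluster probes (1 a gene), the 5 cluster genes with the brightest Cy5 signal and, from each list, the 4 called genes of smallest p. Other members were named after their values were seen. A gene that this rule took is not reported here. The members and lists were chosen with earlier results of these data known. Alternatives covered background, centring, scaling, channel, filter, threshold, blocks, array weights, probes per gene and each array left out.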

Additional observations from a re-analysis of the deposited data

How the results depend on the processing

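The number of cluster probes called higher stayed between 22 and 28 in all 23 alternatives, and leaving out 1 array gave 25 to 26 higher and 7 to 9 lower. Scaling all arrays to one spread, added after seeing the data, left 4 cluster probes called lower. With the software's log ratios, and equally with the deposited value table, the cluster median was 0.83, the variant median -0.14 and their difference 0.98; median centring gave a cluster median of 0.66, a difference of 0.75 and a variant median of -0.22 between the rescue arrays. The Cy5 channel alone gave a cluster median of 0.68, no (0) variant called higher and 1 histone probe past 1.5-fold, higher in W391D. With 1 feature a gene, by the brightest or the mean probe, 1 variant was called higher and 3 lower, with a variant median of -0.14; fewer features were counted. Leaving out 1 array moved the variant median between -0.11 and -0.024. The replicate block gave 28 higher and 9 lower cluster probes and 4 and 7 variant probes, and changed no call other than those given above for Hist1h2ao, Hist1h4d, H2afz and H3f3a. Sign changes were seen only for probes that were not called. One H2afy probe was at -0.027 with the software's log ratios and with the value table, -0.074 with median centring, -0.040 in Cy5 alone, -0.057 on the second slide, -0.022 with array weights and -0.048 to 0.066 without 1 array. The 2 dim H1f0 probes were at 0.00051 without background correction (1 of them), at 0.00052 and 0.00025 with the scaling, and at -0.097 to 0.11 and -0.084 to 0.064 without 1 array. Hist1h1t was at -0.11 in Cy5 alone. The causes were not tested.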
